A study of Mus musculus with 3 samples.

Results

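The natriuretic peptide system was described here through 6 genes: the hormone precursors Nppa and Nppb, the convertase Corin, and the receptors Npr1, Npr2 and Npr3. All 6 were found among the 32285 genes counted, and they were chosen by name, not by their values. The hearts came from male C57/B6J mice of 3 genotypes: Myh6-R404Q, a point mutation in the alpha myosin heavy chain; Prkag2-p.R299Q, a point mutation in a regulatory subunit of AMP-activated protein kinase; and wild type (WT). Both mutations are used to model hypertrophic cardiomyopathy, in which heart muscle thickens. The age of the mice, the zygosity of the mutations and the number of hearts behind a library are not given in these sources. Total cells were freed with collagenase, strained and captured in droplets with a 10x Genomics 3′ kit of version 3, which tags each captured transcript with a unique molecular identifier (UMI). There was 1 library for each genotype. No difference between genotypes therefore has a replicate check or a test, and every interval given is a 95% interval that covers counting error only.

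Nppa encodes atrial natriuretic peptide and Nppb encodes brain natriuretic peptide, hormones that heart muscle releases when it is stretched and that lower blood pressure and volume. In the adult, Nppa is a gene of the atria, and its renewed expression in ventricular muscle is a classic mark of hypertrophy. Corin is a membrane protease of cardiomyocytes that cuts the Nppa precursor into the active hormone. Npr1 (guanylyl cyclase A) is the receptor of both hormones, Npr2 (guanylyl cyclase B) is the receptor of the related C-type peptide, and Npr3 binds all of these peptides and removes them from the circulation.

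Nppa and Nppb lie next to each other on mouse chromosome 4, both on the plus strand. In the mm10 assembly with GENCODE M21 annotation, Nppa spans chr4:148000722-148002079 and Nppb spans chr4:147985788-147987205, with 13516 bases between them. Npr2 lies on the same chromosome at chr4:43631935-43651244. Npr1 lies at chr3:90450591-90465866, Npr3 at chr15:11839896-11907287 and Corin at chr5:72300025-72504473, all of them on the minus strand. Annotated antisense genes overlap Nppa (Gm13054), Npr1 (Gm16048), Npr2 (Gm12473) and Corin (Gm20647). The sources used here do not say whether the counting used strand, so reads of these pairs cannot be told apart.

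The 250 bases before the transcription start of Nppa and Nppb are shown because these genes were higher in Prkag2-p.R299Q cardiomyocyte-like cells, and those of Corin because it is the member most abundant in these cells and was not higher there. The sequences are from RefSeq on GRCm38.p6, the full name of the build mm10, and all 6 genes had an entry. The windows are chr4:148000472-148000721 on the plus strand for Nppa, chr4:147985650-147985899 on the plus strand for Nppb and chr5:72504541-72504790 on the minus strand for Corin. The RefSeq start of Nppb lies inside the gene as GENCODE M21 places it, so part of its window overlaps that annotation. Capitals mark matches, on either strand, to the letters TCACACC known for T-box factors, AAGTG known for the factor NKX2-5, GATAA known for factors of that family, the core promoter letters TATAAA, or CATTCC, known as the M-CAT element.
Nppa: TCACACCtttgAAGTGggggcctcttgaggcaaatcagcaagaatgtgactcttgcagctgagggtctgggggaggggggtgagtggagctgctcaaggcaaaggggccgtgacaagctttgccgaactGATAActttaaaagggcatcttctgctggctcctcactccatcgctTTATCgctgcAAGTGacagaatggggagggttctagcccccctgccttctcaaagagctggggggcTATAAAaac
Nppb: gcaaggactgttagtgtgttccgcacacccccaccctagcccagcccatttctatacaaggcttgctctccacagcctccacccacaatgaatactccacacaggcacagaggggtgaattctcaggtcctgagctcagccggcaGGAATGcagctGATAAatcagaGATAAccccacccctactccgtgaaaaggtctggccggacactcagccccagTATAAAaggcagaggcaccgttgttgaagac
Corin: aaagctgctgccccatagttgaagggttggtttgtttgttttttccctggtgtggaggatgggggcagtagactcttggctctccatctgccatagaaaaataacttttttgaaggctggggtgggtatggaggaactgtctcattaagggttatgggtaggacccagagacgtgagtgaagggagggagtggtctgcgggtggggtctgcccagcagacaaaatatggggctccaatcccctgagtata

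The Nppa window held 1 T-box match at its far end, 2 NKX2-5 matches at 239 to 235 and 65 to 61 bases before the start, 2 GATA matches at 121 to 117 and, on the minus strand, 75 to 71 bases, and a TATA box match at 9 to 4 bases. The Nppb window held 2 GATA matches at 94 to 90 and 83 to 79 bases before the start, a TATA box match at 31 to 26 bases and 1 M-CAT match on the minus strand at 105 to 100 bases. The windows of Corin, Npr1, Npr2 and Npr3 held 0 matches to these letters. Short letters are common: of 32851 windows of this length, 3.33% held the T-box letters, 40.7% the NKX2-5 letters, 22.6% the GATA letters, 12.4% the TATA box letters and 12.6% the M-CAT letters. A match describes these letters and does not show that a factor binds there.

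The libraries held 12662, 7951 and 18033 barcodes and 38251499, 31385005 and 41047991 UMIs in Myh6-R404Q, Prkag2-p.R299Q and WT, and 10555, 6840 and 14831 cells were kept after filters. The Myh6-R404Q matrix as deposited is an aggregate in which 7951 barcodes equal the Prkag2-p.R299Q matrix and 18033 equal the WT matrix, with 0 entries differing. The 12662 barcodes left, which end in the suffix 3, were used as Myh6-R404Q by elimination. These libraries shared 28 to 51 barcode sequences with each other, and 3′ counts of Myh6 and Prkag2 do not check point mutations. Clustering without the 6 genes gave 22 clusters, of which 13 classes or single clusters that had 50 or more cells per library were compared. Cardiomyocyte-like cells numbered 1337, 1150 and 2138 in Myh6-R404Q, Prkag2-p.R299Q and WT, and all 7 cardiomyocyte markers were detected in each of their 3 clusters. Of 9 atrial genes looked up, 7 were under 10 CPM (counts-per-million, the share of a gene in all UMIs of the class) in these cells in every library, with 0 UMIs of the atrial markers Sln and Bmp10. The genes Myl2 and Myl3, for ventricular light chains, were at 806 to 1888 CPM. Other genes of these lists were less clear: the atrial-list gene Kcnj3 was at 706 to 1111 CPM and Kcnj5 at 35.1 to 44.1 CPM, and the ventricular-list genes Irx4 and Hey2 were at 19.5 to 22.9 and 5.09 to 5.96 CPM.

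**Figure D1:**
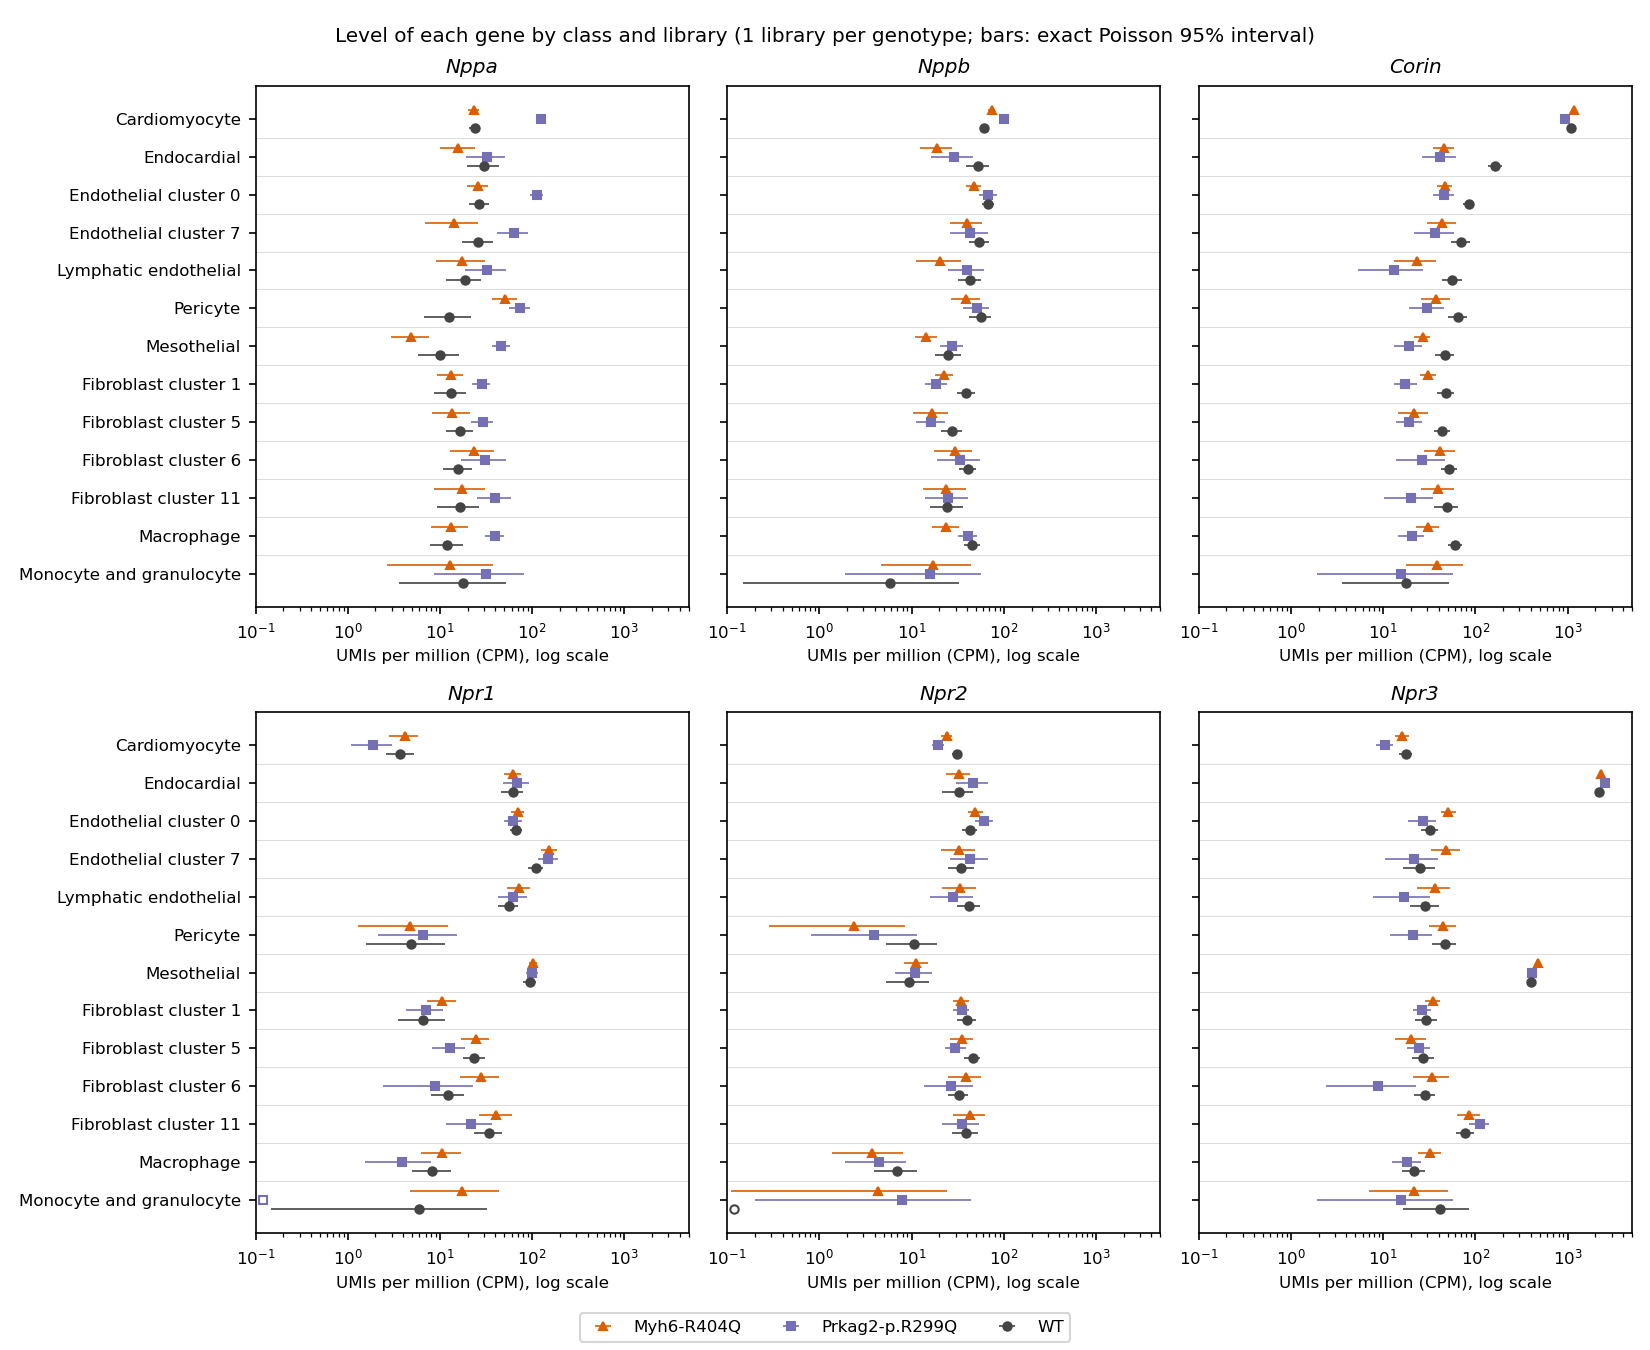
Level of the 6 genes in each of the 13 classes, in CPM on a log axis, for Myh6-R404Q (triangles), Prkag2-p.R299Q (squares) and WT (circles); bars are exact Poisson 95% intervals and open symbols at the left edge mark 0 UMIs. Corin stands apart in cardiomyocyte-like cells and Npr3 in endocardial-like and mesothelial-like cells, whereas the Nppa points of Prkag2-p.R299Q lie right of WT in every class.

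The count of members past 1.5-fold in each class is read against all genes of the class with at least 10 CPM in either library, and these shares widen in small classes. In endocardial-like cells 0 members were past it upward and 3 downward for Myh6-R404Q (12.2% and 10.6% of genes), and 0 and 2 for Prkag2-p.R299Q (12.7% and 16.1%). In endothelial cluster 0 there were 1 upward and 1 downward for Myh6-R404Q (5.99% and 7.02%), and 1 and 1 for Prkag2-p.R299Q (7.08% and 8.22%). Endothelial cluster 7 had 1 and 2 for Myh6-R404Q (12.6% and 11.3%), and 1 and 1 for Prkag2-p.R299Q (14.3% and 14.4%). Among endothelial classes the member past it downward in both mutants was Corin each time. Lymphatic endothelial-like cells had 0 and 2 for Myh6-R404Q (13.1% and 11.6%), and 1 and 2 for Prkag2-p.R299Q (10.6% and 15.3%). Fibroblast cluster 1 had 1 and 2 for Myh6-R404Q (7.58% and 6.35%), and 1 and 2 for Prkag2-p.R299Q (6.34% and 7.30%). Fibroblast cluster 5 had 0 and 2 for Myh6-R404Q (8.43% and 7.95%), and 1 and 4 for Prkag2-p.R299Q (6.97% and 7.75%). The 4 lower there were Nppb, Npr1, Npr2 and Corin. Fibroblast cluster 6 had 1 and 0 for Myh6-R404Q (13% and 10.0%), and 1 and 2 for Prkag2-p.R299Q (15.6% and 13.9%), and fibroblast cluster 11 had 0 and 0 for Myh6-R404Q (14.1% and 15.1%), and 1 and 2 for Prkag2-p.R299Q (12.1% and 17.1%). Macrophage-like cells had 0 and 2 for Myh6-R404Q (9.81% and 10.0%), and 1 and 1 for Prkag2-p.R299Q (6.32% and 11.8%). Mesothelial-like cells had 0 and 2 for Myh6-R404Q (9.38% and 6.26%), and 1 and 1 for Prkag2-p.R299Q (9.48% and 6.80%). In each of these fibroblast, macrophage-like and mesothelial-like classes the member past it upward in Prkag2-p.R299Q was Nppa. Pericyte-like cells had 1 and 2 for Myh6-R404Q (12.4% and 10.1%), and 1 and 3 for Prkag2-p.R299Q (11.6% and 11.6%). The monocyte and granulocyte-like class, the smallest, had 3 and 1 for Myh6-R404Q (23.7% and 25.3%), and 2 and 1 for Prkag2-p.R299Q (25.5% and 27.5%). With 4 to 6 members measured in a class, 1 member is a larger share than most of these backgrounds, so the counts alone say little and the values follow.

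Nppa was higher in Prkag2-p.R299Q cardiomyocyte-like cells, whereas in those of Myh6-R404Q the result depended on how cells were weighted. It had 179 UMIs for Myh6-R404Q, 1124 for Prkag2-p.R299Q and 217 for WT cardiomyocyte-like cells. These are 23.2 CPM (exact Poisson interval 19.9 to 26.8) for Myh6-R404Q, 124 CPM (117 to 132) for Prkag2-p.R299Q and 23.7 CPM (20.6 to 27.1) for WT. The Prkag2-p.R299Q level was 5.25 times that of WT (exact binomial interval 4.53 to 6.10), and the Myh6-R404Q level was 0.98 times (0.80 to 1.20). With each cell thinned to 1000 UMIs, so that every cell weighs the same, the ratios were 11.4 (8.26 to 16.2) for Prkag2-p.R299Q and 2.81 (1.91 to 4.18) for Myh6-R404Q. Both comparisons rest on the same WT library.

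Nppb was also higher in Prkag2-p.R299Q, by less. It had 570 UMIs for Myh6-R404Q, 909 for Prkag2-p.R299Q and 564 for WT cardiomyocyte-like cells, which are 73.8, 101 and 61.6 CPM. The ratio to WT was 1.20 (1.07 to 1.35) for Myh6-R404Q and 1.63 (1.47 to 1.82) for Prkag2-p.R299Q. In cardiomyocyte-like cells 5 of the 6 genes had at least 10 CPM in either library of a comparison; the exception was Npr1. With 1.5-fold as the limit, Nppa and Nppb were past it upward and Npr2 and Npr3 downward in Prkag2-p.R299Q, where 3.09% of 8840 genes were past it upward and 3.62% downward. For Myh6-R404Q 0 of the 5 were past it, where 9.91% of 9168 genes were past it upward and 2.95% downward. In either direction these shares are 12.9% for Myh6-R404Q, 6.71% for Prkag2-p.R299Q.

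A few cells carried most Nppa. The 1% of cardiomyocyte-like cells with the most Nppa UMIs held 62.0% of them for Myh6-R404Q, 66.7% for Prkag2-p.R299Q and 72.4% for WT. At least 5 Nppa UMIs were found in 8 of 1337 cardiomyocyte-like cells of Myh6-R404Q, 31 of 1150 of Prkag2-p.R299Q and 9 of 2138 of WT. The highest single cell had 25, 164 and 56 UMIs in the same order of genotypes. In all other classes together such cells were rare, at 4 of 9218, 10 of 5690 and 1 of 12693, without matching for depth. The cardiomyocyte-like cells with at least 5 Nppa UMIs held 0 UMIs of the atrial genes Myl7, Myl4 and Sln for Myh6-R404Q, 1 for Prkag2-p.R299Q and 0 for WT, against 196, 694 and 100 UMIs of the ventricular light chain Myl2. Without the 1% of cells with the most Nppa, the level was 8.89, 41.8 and 6.63 CPM in the same order of genotypes. That trim took out 13, 12 and 21 cells. It removed every cell with at least 5 Nppa UMIs in Myh6-R404Q and WT but not in Prkag2-p.R299Q. The remaining cells are therefore not alike between libraries, and no level of cells with few Nppa UMIs is read from them.

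The share of cardiomyocyte-like cells with any Nppa UMI was 5.68% for Myh6-R404Q, 15.1% for Prkag2-p.R299Q and 3.55% for WT. In endothelial cluster 0, a class that should lack Nppa, 3.09%, 10.3% and 2.49% of cells had a UMI. The median depth was 5110, 6546.5 and 3640 UMIs per cardiomyocyte-like cell and 1243, 1423 and 963 UMIs per endothelial cell of this cluster in Myh6-R404Q, Prkag2-p.R299Q and WT. After each cell was thinned to 1000 UMIs, the share was 2.07%, 4.76% and 1.29% of cardiomyocyte-like cells and 2.31%, 5.42% and 1.95% of this endothelial cluster. Shallower cells were left out there, 132, 121 and 272 of the cardiomyocyte-like cells. This endothelial cluster had the highest mean Nppa level outside muscle and also carried Myh6. Against all other classes together at matched depth, the cardiomyocyte-like share of Prkag2-p.R299Q was higher in the shallower cells. It was 14.9% (9.06 to 22.5%) against 6.84% (5.07 to 8.99%) between 500 and 1000 UMIs and 19.6% (12.2 to 28.9%) against 7.62% (6.43 to 8.95%) between 1000 and 2000 UMIs. Between 4000 and 8000 UMIs the shares were close, at 11.5% (8.36 to 15.4%) against 11.2% (8.49 to 14.3%). At 8000 UMIs and above they were 17.2% (13.9 to 21.0%) against 20.8% (10.5 to 35.0%). The cardiomyocyte-like share of Myh6-R404Q between 1000 and 2000 UMIs was 9.09% (4.45 to 16.1%) against 2.29% (1.86 to 2.79%), and the WT intervals overlapped at every depth. Whether the share stood above background thus depended on depth and on the class it was set against, and it is not read as a share of expressing cells. Cells with 5 or more UMIs were rarer in the other classes than in cardiomyocyte-like cells in each library. That count was not matched for depth, and cardiomyocyte-like cells were deeper than endothelial cluster 0.

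**Figure D2:**
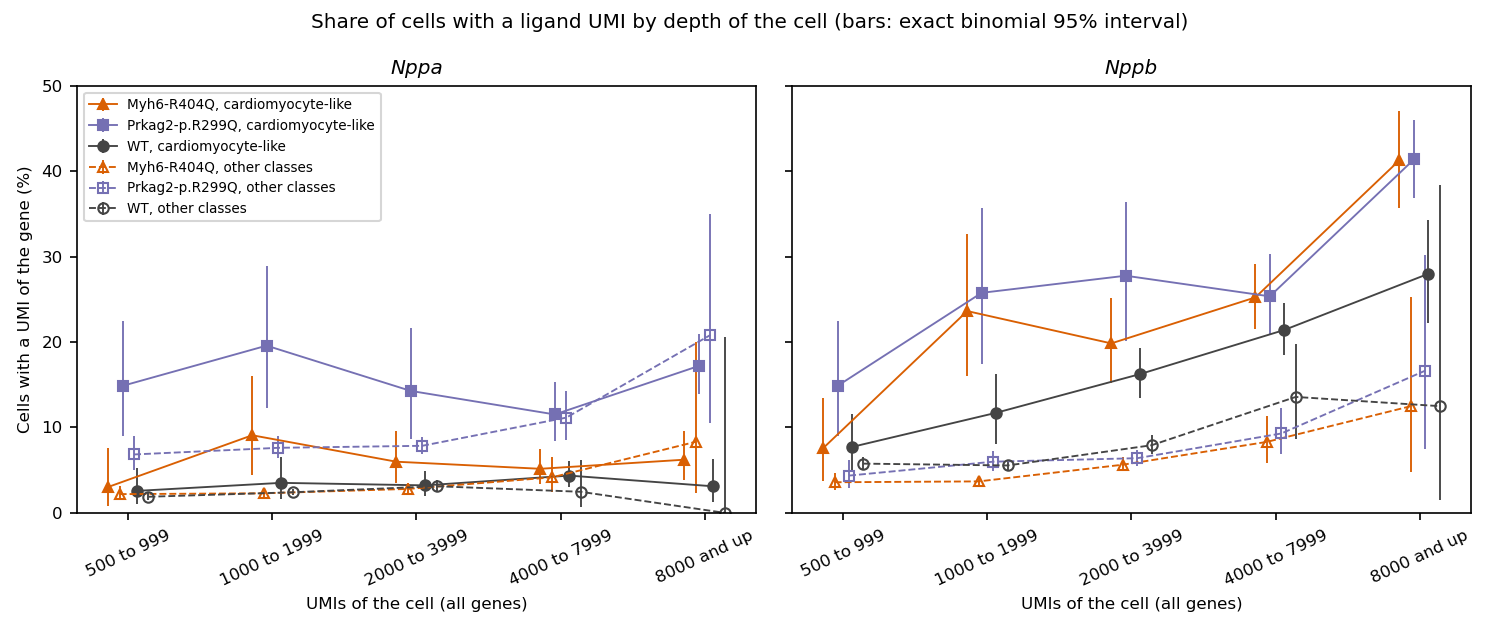
Share of cells with at least 1 Nppa (left) or Nppb (right) UMI, in percent, by the cell's own depth in UMIs, in cardiomyocyte-like cells (filled, solid lines) and all other classes together (open, dashed lines); bars are exact binomial 95% intervals. For Nppa the Prkag2-p.R299Q cardiomyocyte-like cells lie at 14.3 to 19.6% in the 3 shallower depth ranges, against 6.84 to 7.86% of the other classes. Between 4000 and 8000 UMIs they lie at 11.5% against 11.2%. In the deepest range they lie at 17.2%, and the other classes are at 20.8%, from 48 cells, with an interval of 10.5 to 35.0%. For Nppb the cardiomyocyte-like points lie above the other classes at each depth, with some overlapping intervals in Myh6-R404Q and WT.

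Prkag2-p.R299Q had the highest Nppa share of cardiomyocyte-like cells in each of the 5 depth ranges. Among cardiomyocyte-like cells of at least 4000 and under 8000 UMIs, Nppa was found in 5.16% of Myh6-R404Q, 11.5% of Prkag2-p.R299Q and 4.37% of WT cells. Among those of at least 500 and under 1000 UMIs it was found in 3.03%, 14.9% and 2.57%. A Nppb UMI was found in 26.0%, 31.0% and 17.6% of cardiomyocyte-like cells. After thinning it was found in 9.54%, 7.87% and 6.65%, against 3.69%, 6.86% and 4.36% of endothelial cluster 0, a narrow gap in Prkag2-p.R299Q. At matched depth the cardiomyocyte-like share was above that of all other classes together in each depth range. The intervals lay apart in each range of Prkag2-p.R299Q and overlapped in some ranges of Myh6-R404Q and WT. The thinned Nppb share of Prkag2-p.R299Q was below that of Myh6-R404Q, which goes against the order of their CPM, so no order is read from these shares.

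The cardiomyocyte-like cells fell into 3 clusters at the resolution used, of similar mix in each library, 71.8 to 74.3% in cluster 2, 21.4 to 23.0% in cluster 12 and 3.91 to 5.15% in cluster 17. Prkag2-p.R299Q had the highest Nppa level in each. In cluster 2 Nppa was at 10.3 CPM for Myh6-R404Q, 54.5 CPM for Prkag2-p.R299Q and 18.7 CPM for WT, with ratios to WT of 0.55 (0.41 to 0.74) and 2.92 (2.41 to 3.55). In cluster 12 it was at 253, 1550 and 76.8 CPM, with ratios of 3.30 (2.28 to 4.84) and 20.2 (14.7 to 28.3). In cluster 17 it was at 11.2, 175 and 35.5 CPM. The Myh6-R404Q level was thus below WT in clusters 2 and 17 and above it in cluster 12, and its ratio over all cardiomyocyte-like cells has no stable direction. Cluster 12 was shallow, with median depths of 1098, 1078 and 920.5 UMIs, and its median share of mitochondrial UMIs was 5.18%, 5.13% and 4.41%, against 0.893%, 0.717% and 1.02% in cluster 2. Its Myh6 level was 33601, 45741 and 15120 CPM, 2.22 and 3.03 times WT in the mutants, so an abundant muscle transcript was also above WT there. The part of depth and RNA quality in these ratios was not tested.

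Finer clusters, looked at after the data had been seen, showed that the mix inside cluster 12 differed between libraries. At resolution 1.6 a cluster numbered 23, led by Acta1, Ankrd23 and Xirp2, held 74 cells of Myh6-R404Q, 110 of Prkag2-p.R299Q and 21 of WT, which are 25.9%, 43.8% and 4.27% of cluster 12. Its cells held 39.7%, 39.8% and 3.69% of the Nppa UMIs of all cardiomyocyte-like cells. Within it Nppa was at 487 CPM (380 to 614) for Myh6-R404Q, 2323 CPM (2112 to 2548) for Prkag2-p.R299Q and 288 CPM (125 to 568) for WT, the last from 8 UMIs, with ratios of 1.69 (0.81 to 4.06) and 8.05 (4.05 to 18.8). In the cells of cluster 12 that fell into the fine cluster 15, the ratios were 1.99 (1.19 to 3.33) and 9.64 (6.49 to 14.7). Both fine ratios of Prkag2-p.R299Q were above 1 and below the 20.2 of cluster 12 as a whole, so libraries differed both in the mix of cluster 12 and in the level within its finer clusters. A further fine cluster, numbered 14, held 180, 146 and 863 cells, with Nppa ratios of 0.54 (0.27 to 0.99) and 10.3 (8.11 to 13.04). The largest fine cluster, numbered 4, held 809, 703 and 665 cells, with Nppa ratios of 1.11 (0.72 to 1.71) and 3.34 (2.35 to 4.85). The mix outside cluster 12 thus also differed between libraries at this resolution. In fine cluster 4 the Myh6-R404Q interval included 1, unlike that of cluster 2.

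**Figure D3:**
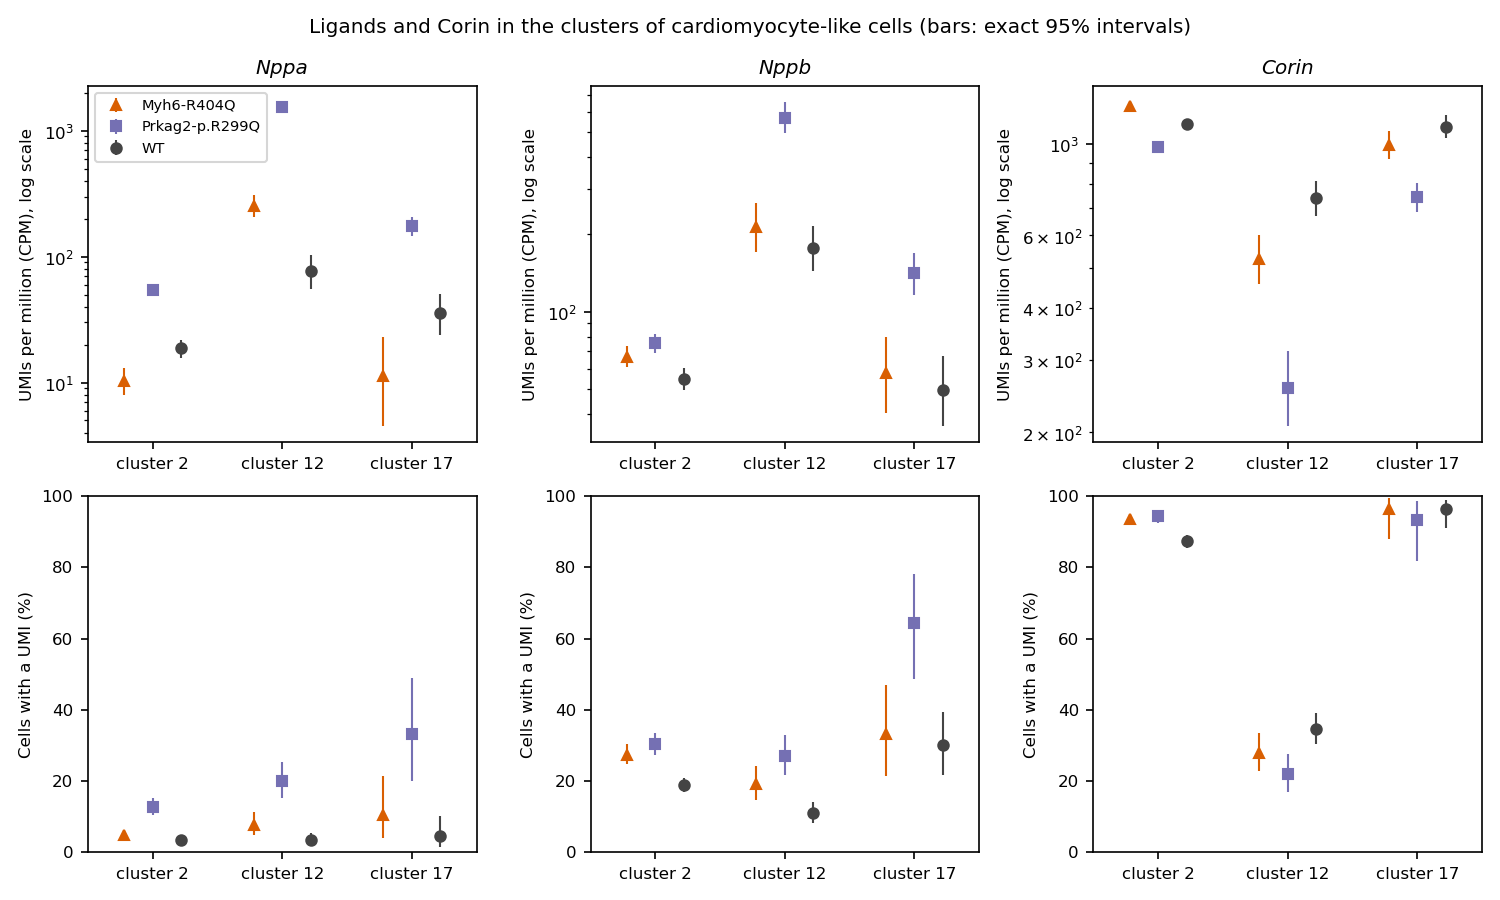
Level on a log axis (top, CPM) and share of cells with a UMI (bottom, percent) of Nppa, Nppb and Corin in the 3 clusters of cardiomyocyte-like cells, for Myh6-R404Q (triangles), Prkag2-p.R299Q (squares) and WT (circles), with exact 95% intervals. Nppa of Prkag2-p.R299Q is the highest point in each cluster, up to 1550 CPM in cluster 12, where Corin of Prkag2-p.R299Q is the lowest at 257 CPM.

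Nppb was above WT in each of clusters 2, 12 and 17 in both mutants. In the Acta1-led fine cluster Nppb was at 343, 847 and 1046 CPM in Myh6-R404Q, Prkag2-p.R299Q and WT, the WT value from 29 UMIs. The ratios to WT there were 0.33 (0.20 to 0.54) and 0.81 (0.54 to 1.25), and the Prkag2-p.R299Q interval included 1. The ratio of Myh6-R404Q to WT was 1.22 (1.07 to 1.40) in cluster 2, 1.21 (0.89 to 1.63) in cluster 12 and 1.16 (0.72 to 1.85) in cluster 17, and only the first interval lay above 1. The ratio of Prkag2-p.R299Q to WT was 1.37 (1.21 to 1.56), 3.21 (2.51 to 4.13) and 2.84 (1.97 to 4.15) in the same clusters. Its UMIs were more evenly spread than those of Nppa, with 15.4% for Myh6-R404Q, 22.9% for Prkag2-p.R299Q and 19.0% for WT in the 1% of cells that had the most.

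With all cardiomyocyte-like clusters pooled, cells with a Nppa UMI also carried more Nppb, Ankrd1 and Acta1 in each library. Nppb was found in 42.1% of the cardiomyocyte-like cells with Nppa and 24.98% of those without in Myh6-R404Q, in 44.3% and 28.6% in Prkag2-p.R299Q, and in 38.2% and 16.9% in WT. Ankrd1, a stretch-responsive protein of the sarcomere, was at 621 CPM in cells with Nppa and 326 CPM in those without in Myh6-R404Q, at 856 and 443 CPM in Prkag2-p.R299Q, and at 1420 and 274 CPM in WT. Acta1, skeletal alpha actin, was at 121 and 34.9 CPM, 270 and 61.6 CPM, and 173 and 59.9 CPM in the same comparisons. Myh7, the beta myosin heavy chain of the fetal ventricle, differed less, at 1424 and 1299 CPM, 1870 and 1794 CPM, and 1522 and 1405 CPM. Corin CPM was lower in cells with Nppa, at 1089 and 1184 CPM, 841 and 953 CPM, and 839 and 1104 CPM. The share of cells with a Corin UMI had no common direction, at 78.9% and 79.7%, 73.0% and 79.4%, and 85.5% and 75.3%. The cells with Nppa, 76, 174 and 76 in number, were somewhat deeper than the rest, at median depths of 5543.5, 7145.5 and 4051 UMIs against 5091, 6496 and 3621.5 UMIs. Clusters also differed in these genes. In Prkag2-p.R299Q the Acta1-led fine cluster had Ankrd1 at 3159 CPM and Acta1 at 1798 CPM, against 384 and 29.8 CPM in fine cluster 4. The part of cluster differences in this comparison was not tested.

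Nppa was also higher outside muscle in Prkag2-p.R299Q. It was above WT in all 12 other classes, past 1.5-fold in 11 of them, and the counting interval lay above 1 in 8. Its level in these classes was 28.3 to 112 CPM in Prkag2-p.R299Q and 9.99 to 30.1 CPM in WT. Endothelial cluster 0, at 112 CPM against 26.6 CPM, had nearly the level of cardiomyocyte-like cells, and it also carried cardiomyocyte RNA, with Myh6 at 9120 CPM against 7354 CPM. In this cluster 7.08% of 10331 genes were past 1.5-fold upward. Nppb, made by the same cells, was above WT in 4 of the 12 classes, and its interval lay above 1 in 0 of them. The number of Nppa UMIs per 1000 Myh6 UMIs was 8.75 in cardiomyocyte-like cells, 12.3 in endothelial cluster 0 and 31.9 in mesothelial-like cells of Prkag2-p.R299Q, against 1.84, 3.62 and 5.22 in WT. No step removed free RNA, and its part in these levels was not tested.

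In Myh6-R404Q, Nppa outside muscle was above WT in 4 classes and below it in 8, and the interval of the ratio lay above 1 in 1 class and below 1 in 1 class. The class above 1 was pericyte-like cells, the mural cells of capillaries, at 50.9 CPM for Myh6-R404Q, 73.5 CPM for Prkag2-p.R299Q and 12.5 CPM for WT, with ratios of 4.06 (2.14 to 8.22) and 5.86 (3.17 to 11.7). Past 1.5-fold upward in this class were 12.4% of 10506 genes in Myh6-R404Q and 11.6% of 10526 in Prkag2-p.R299Q. Myh6 was also higher there, at 6512 CPM for Myh6-R404Q and 5013 CPM for Prkag2-p.R299Q against 4114 CPM in WT. Nppb was below WT in 11 of 12 other classes in Myh6-R404Q, with the interval below 1 in 7.

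Corin was by far most abundant in cardiomyocyte-like cells, which held 92.8% of its UMIs for Myh6-R404Q, 95.9% for Prkag2-p.R299Q and 87.8% for WT. It had 9096, 8434 and 10019 UMIs there, which are 1178 CPM (1154 to 1202) for Myh6-R404Q, 933 CPM (913 to 953) for Prkag2-p.R299Q and 1094 CPM (1073 to 1115) for WT. The ratio to WT was 1.08 (1.05 to 1.11) for Myh6-R404Q and 0.85 (0.83 to 0.88) for Prkag2-p.R299Q, neither past 1.5-fold. With edgeR's TMM scaling (factors 1.06, 0.96 and 0.98) the Myh6-R404Q log2 ratio of 0.11 became -0.01, so its direction depends on the scaling. A Corin UMI was found in 79.7%, 78.4% and 75.7% of cardiomyocyte-like cells, and after thinning in 56.5%, 52.3% and 56.6%, against 4.71%, 4.15% and 7.23% of endothelial cluster 0. In cluster 12, where Nppa was highest, Corin was at 526 CPM for Myh6-R404Q, 257 CPM for Prkag2-p.R299Q and 739 CPM for WT. The ratios were 0.71 (0.60 to 0.84) and 0.35 (0.27 to 0.44). In the fine cluster 15 they were 0.87 (0.72 to 1.05) and 0.49 (0.36 to 0.64). In the Acta1-led fine cluster they were 1.06 (0.47 to 2.81) and 0.62 (0.27 to 1.67), with Corin at 267, 156 and 252 CPM. The Myh6-R404Q interval thus included 1 within either fine cluster, and the mix of cluster 12 differed between libraries. In clusters 2 and 17 the ratio of Prkag2-p.R299Q to WT was 0.88 and 0.67. Convertase and substrate thus differed from WT in opposite directions in Prkag2-p.R299Q in each of clusters 2, 12 and 17.

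Outside muscle Corin was lower in both mutants. It was below WT in 11 of the 12 other classes in Myh6-R404Q, with 9 past 1.5-fold, and in 12 of 12 in Prkag2-p.R299Q, with 11 past 1.5-fold. The exception was the monocyte and granulocyte-like class, with 9, 2 and 3 UMIs. The widest gap in Myh6-R404Q was in endocardial-like cells, the inner lining of the heart, at 45.4 CPM for Myh6-R404Q, 41.2 CPM for Prkag2-p.R299Q and 164 CPM for WT, with ratios of 0.28 (0.20 to 0.37) and 0.25 (0.15 to 0.39). Past 1.5-fold downward in this class were 10.6% of 10483 genes in Myh6-R404Q and 16.1% of 10439 in Prkag2-p.R299Q. In WT 8 of 527 endocardial-like cells had at least 5 Corin UMIs, against 0 of 669 and 0 of 223 in the mutants, and without them the WT level was 108 CPM. In macrophage-like cells Corin was at 30.5, 20.4 and 59.9 CPM. Pln, phospholamban, which is abundant in cardiomyocytes, was also lower in the mutants in endocardial-like cells, at 726 CPM for Myh6-R404Q, 565 CPM for Prkag2-p.R299Q and 896 CPM for WT. Myh6 itself was at 2579 CPM in Myh6-R404Q hearts, 1439 CPM in those of Prkag2-p.R299Q and 2594 CPM in WT hearts there. Corin per 1000 Myh6 UMIs was 17.6, 28.6 and 63.2. The part of free cardiomyocyte RNA was not tested. Smooth muscle-like cells were too few for the comparison, at 55, 21 and 208 cells, and carried Corin at 631 CPM for Myh6-R404Q, 338 CPM for Prkag2-p.R299Q and 434 CPM for WT, with 4, 2 and 12 cells of at least 5 UMIs.

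Npr3, the clearance receptor, was a gene of the heart's linings. Endocardial-like cells made up 6.34%, 3.26% and 3.55% of the kept cells of Myh6-R404Q, Prkag2-p.R299Q and WT and held 55.8%, 55.2% and 59.6% of all Npr3 UMIs. The level there was 2302 CPM (2222 to 2383) for Myh6-R404Q, 2554 CPM (2423 to 2690) for Prkag2-p.R299Q and 2187 CPM (2091 to 2286) for WT, with a UMI in 87.3%, 93.7% and 83.3% of cells. The ratio to WT was 1.05 (0.99 to 1.11) for Myh6-R404Q and 1.17 (1.09 to 1.25) for Prkag2-p.R299Q. Npr3 was not past 1.5-fold in this class in either mutant.

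Mesothelial-like cells, which cover the surface of the heart, came next for Npr3. Its level was 481 CPM (459 to 503) for Myh6-R404Q, 408 CPM (379 to 438) for Prkag2-p.R299Q and 401 CPM (371 to 434) for WT, with ratios of 1.20 (1.09 to 1.31) and 1.02 (0.91 to 1.13). Npr3 was not past 1.5-fold there either. Fibroblast cluster 11, led by Shisa9 and Fbn2, followed at 85.2, 111 and 77.4 CPM. The 3 classes were in this order in each library, with intervals that did not overlap. The other classes had 8.89 to 51.1 CPM, and many of their intervals overlapped. Endothelial clusters 0 and 7 had more Npr3 in Myh6-R404Q, at 51.1 CPM against 32.0 CPM in WT and 48.2 CPM against 25 CPM, with ratios of 1.59 (1.19 to 2.14) and 1.93 (1.14 to 3.30). Past 1.5-fold upward in these clusters were 5.99% and 12.6% of genes. In cardiomyocyte-like cells Npr3 was at 16.2 CPM for Myh6-R404Q, 10.4 CPM for Prkag2-p.R299Q and 17.6 CPM for WT, a ratio of 0.59 (0.45 to 0.77) in Prkag2-p.R299Q. These cells had the lowest mean Npr3 level of the 13 classes, near the limit of 10 CPM in Prkag2-p.R299Q. Within them Npr3 was at 49.2, 39.1 and 51.2 CPM in the shallow cluster 12 and at 13.9, 9.38 and 16.4 CPM in cluster 2.

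Npr1, the receptor of the peptides from Nppa and Nppb, was highest in endothelial cluster 7, which is led by Kcnc2 and Lhx6. Its level there was 153 CPM (126 to 185) for Myh6-R404Q, 149 CPM (116 to 189) for Prkag2-p.R299Q and 109 CPM (90.5 to 130) for WT, from 108, 69 and 122 UMIs. The ratio to WT was 1.41 (1.08 to 1.84) for Myh6-R404Q and 1.37 (1.01 to 1.86) for Prkag2-p.R299Q, neither past 1.5-fold, where 12.6% and 14.3% of genes were past it upward. A UMI was found in 20.4%, 24.1% and 12.2% of these cells, and after thinning in 14.2%, 19.0% and 9.36%, against 1.05%, 0.536% and 0.943% of macrophage-like cells, with median depths of 1413, 1789 and 1181.5 UMIs in the cluster and 1581, 2107 and 1287.5 UMIs in macrophage-like cells. The WT share was the lowest with and without thinning.

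Mesothelial-like cells were next for Npr1, at 103, 100 and 94.9 CPM in Myh6-R404Q, Prkag2-p.R299Q and WT, and the intervals of the ratios to WT, 0.90 to 1.32 and 0.85 to 1.32, included 1. The intervals of the levels of these leading classes overlapped in WT and lay apart in both mutants. Endothelial cluster 0 followed at 62.5 to 69.9 CPM, endocardial-like cells at 61.3 to 68.1 CPM and lymphatic endothelial-like cells at 55.5 to 72.7 CPM, not separable from one another. Fibroblast clusters had 6.60 to 41.0 CPM. Pericyte-like cells had 4.73 to 6.57 CPM and cardiomyocyte-like cells 4.14, 1.88 and 3.71 CPM, so little of the transcript of this receptor was found in the cells that make the ligands. Mesothelial-like cells thus came next after the leading class for both Npr1 and Npr3.

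Npr2 was low and broad. Endothelial cluster 0 had the highest mean level, with 49.3 CPM (40.7 to 59.2) for Myh6-R404Q, 61.7 CPM (48.8 to 77.1) for Prkag2-p.R299Q and 42.8 CPM (35.2 to 51.6) for WT. The ratio to WT was 1.15 (0.88 to 1.51) and 1.44 (1.06 to 1.94), and thinning to 1000 UMIs moved the Prkag2-p.R299Q log2 ratio of 0.52 to 0.07. Fibroblast clusters had 26.7 to 45.9 CPM, endocardial-like cells 32.4 to 46.6 CPM and lymphatic endothelial-like cells 28.3 to 42.1 CPM, with intervals that overlapped those of the leading cluster in WT. Mesothelial-like cells had 9.37 to 11.3 CPM, macrophage-like cells 3.73 to 6.92 CPM and pericyte-like cells 2.37 to 10.6 CPM. In cardiomyocyte-like cells Npr2 was at 24.1 CPM for Myh6-R404Q, 19.5 CPM for Prkag2-p.R299Q and 30.8 CPM for WT, with ratios of 0.78 (0.65 to 0.94) and 0.63 (0.52 to 0.77).

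**Figure D4:**
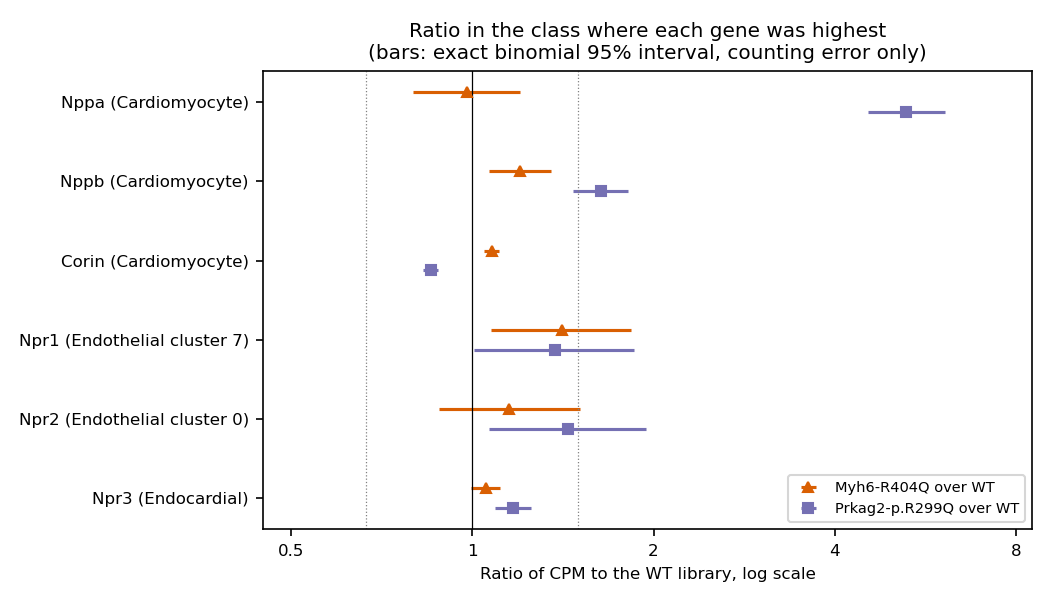
Ratio of CPM in Myh6-R404Q (triangles) and Prkag2-p.R299Q (squares) to WT for each of the 6 genes, in the class where its mean level was highest, on a log axis; bars are exact binomial 95% intervals of counting error, the solid line is a ratio of 1 and dotted lines mark 1.5-fold either way. Only Nppa and Nppb of Prkag2-p.R299Q, at 5.25 and 1.63, lie past the dotted line.

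Other genes of the system were looked up in cardiomyocyte-like cells. Of 7 genes for processing or degradation of the peptides, 7 were measured at 10 CPM or more in the Myh6-R404Q comparison and 2 were past 1.5-fold upward, where 9.91% of 9168 genes were. Mme, neprilysin, which degrades the peptides, was at 68.8 CPM for Myh6-R404Q, 41.2 CPM for Prkag2-p.R299Q and 36.2 CPM for WT, and its ratio in Myh6-R404Q was 1.90 (1.65 to 2.18). Dpp4, a peptidase that trims Nppb peptide in humans, was at 17.7, 7.96 and 9.50 CPM, a ratio of 1.87 (1.42 to 2.47) in Myh6-R404Q. In Prkag2-p.R299Q 6 were measured and 0 were past 1.5-fold, where 3.09% of 8840 genes were past it upward and 3.62% downward. Pam, an amidating enzyme that binds the Nppa precursor in atrial granules, was at 677, 600 and 697 CPM, and Ide, a further degrading protease, at 74.3, 72.8 and 69.7 CPM. The median log2 ratio of the list was 0.09 for Myh6-R404Q and -0.12 for Prkag2-p.R299Q, against 0.10 and -0.04 over all genes tested. Nppc, which encodes the C-type peptide, had 2, 3 and 3 UMIs in these cells, and Ostn, a peptide that binds Npr3, had 0.

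Receptor signals run through cyclic GMP, whose effectors and phosphodiesterases formed a list of 20 genes, 19 of them found. Of 10 measured in cardiomyocyte-like cells, 0 were past 1.5-fold in Myh6-R404Q, where 9.91% of genes were past it upward and 2.95% downward. In Prkag2-p.R299Q 0 were past it upward and 1 downward, where 3.09% and 3.62% of genes were. With 10 genes such counts say little. The gene past it was Rgs2, a regulator of G proteins activated by the cGMP kinase. Rgs2 was at 15.7 CPM for Myh6-R404Q, 8.85 CPM for Prkag2-p.R299Q and 13.3 CPM for WT. Prkg1, the cGMP kinase, was at 1490, 1109 and 1188 CPM and Pde3a, a phosphodiesterase inhibited by cGMP, at 847, 708 and 671 CPM. The median log2 ratio of the list was 0.10 for Myh6-R404Q and -0.13 for Prkag2-p.R299Q, close to those of all genes.

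In endothelial cluster 7, where Npr1 was highest, 14 of the cGMP genes were measured in Myh6-R404Q, with 2 past 1.5-fold upward and 3 downward, where 12.6% and 11.3% of 10250 genes were. In Prkag2-p.R299Q 13 were measured, with 0 upward and 4 downward, where 14.4% of 10406 genes were past it downward. Prkg1 was at 517 CPM for Myh6-R404Q, 305 CPM for Prkag2-p.R299Q and 554 CPM for WT there, and Pde3a at 45.4, 17.3 and 84.8 CPM. In endocardial-like cells 6 of 14 were past 1.5-fold downward in Prkag2-p.R299Q, where 16.1% of 10439 genes were, among them the guanylyl cyclase subunits Gucy1a1, at 92.3, 50.2 and 81.4 CPM, and Gucy1b1, at 95.2, 60.9 and 103 CPM. In mesothelial-like cells Pde3a was at 305 CPM for Myh6-R404Q, 174 CPM for Prkag2-p.R299Q and 169 CPM for WT, a ratio of 1.81 in Myh6-R404Q.

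The measured transcription factors known to act on Nppa or Nppb differed from WT by less than 1.5-fold. Of 18 listed, 13 were measured in cardiomyocyte-like cells and 0 were past 1.5-fold in either mutant. Of all genes tested, 12.9% were past it in either direction for Myh6-R404Q and 6.71% for Prkag2-p.R299Q. With 13 genes a count of 0 says little. Myocd, a cofactor of serum response factor, was at 1447, 1447 and 1282 CPM in Myh6-R404Q, Prkag2-p.R299Q and WT. Mef2a was at 595, 568 and 570 CPM and Mef2c at 377, 546 and 468 CPM, and Tead1, which binds M-CAT letters, at 472, 510 and 636 CPM. The median log2 ratio was 0.05 for Myh6-R404Q and -0.0039 for Prkag2-p.R299Q, against 0.10 and -0.04 over all genes. A transcript level says nothing of the activity of a factor.

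Of 11 hypertrophy and fetal muscle genes, 10 were measured in cardiomyocyte-like cells. In Prkag2-p.R299Q 4 were past 1.5-fold upward, Nppa, Nppb, Ankrd1 and Acta1, and 1 downward, Ccn2, where 3.09% and 3.62% of 8840 genes were. Nppa and Nppb are already counted among the 6 genes. Ankrd1 was at 344 CPM for Myh6-R404Q, 517 CPM for Prkag2-p.R299Q and 317 CPM for WT, a ratio of 1.63 (1.56 to 1.71) in Prkag2-p.R299Q. Acta1 was at 40.1, 99.0 and 64.1 CPM, a ratio of 0.63 (0.54 to 0.72) for Myh6-R404Q and 1.54 (1.39 to 1.72) for Prkag2-p.R299Q. In Myh6-R404Q 0 were past 1.5-fold upward and 2 downward, where 9.91% and 2.95% of 9168 genes were. The 2 were Acta1 and Rcan1, a target of calcineurin, the latter at 38.7, 41.8 and 62.6 CPM. Myh7 was at 1307, 1808 and 1409 CPM, ratios of 0.93 and 1.28. Xirp2, a muscle protein of cell junctions, was at 479, 612 and 615 CPM, and Fhl1, a stretch-sensing LIM protein, at 107, 111 and 143 CPM. The median log2 ratio of the list was -0.07 for Myh6-R404Q and 0.25 for Prkag2-p.R299Q, against 0.10 and -0.04 over all genes. The ventricular genes Myl2 and Myl3 were past 1.5-fold upward in Myh6-R404Q alone, at 1.72 and 1.57. The summed level of 4 ventricular genes was 3181, 2203 and 1928 CPM, that of 9 atrial genes 752, 1088 and 1165 CPM, of which Kcnj3 gave most, and that of 8 conduction genes 39.5, 53.0 and 49.2 CPM. The summed level of 11 dissociation-stress genes was 96.7, 80.4 and 106 CPM, with no mutant above WT.

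The genes most like each member were found by Pearson correlation of log2(CPM + 1) over 39 sums, 13 classes in 3 libraries, among 12950 genes. The points share libraries, so the values describe likeness and no test was made. Corin was most like Dmd, the gene of dystrophin (r = 0.94), and the muscle genes Myoz2 and Trdn (0.93 each). Npr3 was most like Cdh11 (0.92) and Tmem108 (0.91), and Tmem108 was also a marker used to name endocardial-like cells. Npr1 was most like Sh3tc2 (0.87) and Rapgef3 (0.86), and Npr2 was most like Prrg1, Pxdn and Nfib (0.83 each). Nppb was most like the muscle genes Tmem38a (0.79), Tcap (0.78) and Actc1 (0.77). The likeness of Nppa was weak, at 0.51 for Myl1 and Vcl and 0.48 for Acta1, and its pattern was the least matched of the 6.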

How the data were processed

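UMI counts for each gene and barcode were deposited, and reads were processed with Cell Ranger 7.0.1 on mm10, per the submitters' processing notes; whether introns were counted is not stated in the sources used here. The authors deposited barcodes already called as cells. Barcodes under 500 UMIs, under 300 genes or over 20% mitochondrial UMIs were dropped, so that 12661, 7951 and 18033 passed in Myh6-R404Q, Prkag2-p.R299Q and WT. Scrublet in scanpy 1.11.5 called 2106, 1111 and 3202 doublets (16.6%, 14.0% and 17.8%, where 10.1%, 6.36% and 14.4% were expected), which were removed. Median depth of kept cells was 1851, 2344 and 1413 UMIs, and a count of 0 allows a share of cells with a UMI of up to 0.0284%, 0.0439% and 0.0202%, which limits detection and not expression.

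Cells were clustered on 2000 variable genes without the 6 members (4 of which were among them), with 30 principal components, 20 neighbours and leidenalg 0.10.2 at resolution 0.8. Clusters were named from 17 marker lists, by a mean score of at least 0.5 with 3 markers detected in 5% of cells; endothelial and fibroblast clusters failed the check of a class against its leading genes and were compared by number. UMIs were summed per class and library and given as CPM. Intervals are exact Poisson for CPM, exact binomial (Clopper-Pearson) for shares and exact conditional binomial for ratios, computed with scipy 1.17.1. Log2 ratios and list medians use log2(CPM + 1), which understates low genes, and lists count genes of at least 10 CPM in either library past 1.5-fold. The calculation was tested on simulated data.

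From each list the 4 genes of highest mean CPM and any gene past 1.5-fold with an interval beyond 1 could be named. Likeness used the 5 nearest genes. Members and gene lists were chosen with earlier results of these data known. Alternatives tried were kept doublets, 1000 UMIs as the minimum, thinning, resolution 1.6, members allowed in clustering, edgeR 4.0.16 TMM scaling in R 4.3.3, other pseudocounts and filters, and cells without atrial UMIs; clusters at resolution 1.6 taken singly, the largest cluster alone and cells without the 1% richest in the gene were chosen after the data had been seen.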

Additional observations from a re-analysis of the deposited data

How the results depend on the processing

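Over 17 results, 133 values were computed under alternatives: 114 stayed within the counting interval or, for gene counts, within 1.5 times the value reported, 19 moved and 0 called values changed sign. A ratio was called only if past 1.5-fold, which held for Nppa and Nppb of Prkag2-p.R299Q alone. Among the ratios not called, those of Nppa and Corin in Myh6-R404Q changed sign under some alternatives, given below. With each cell thinned to 1000 UMIs, the log2 ratio of Nppa in cardiomyocyte-like cells was 1.45 for Myh6-R404Q and 3.46 for Prkag2-p.R299Q, against -0.03 and 2.34 with all UMIs, that of Nppb in Myh6-R404Q was 0.62 against 0.26, that of Npr1 in Prkag2-p.R299Q endothelial cluster 7 was 0.99 against 0.45, and that of Npr2 in Prkag2-p.R299Q endothelial cluster 0 was 0.067 against 0.52. Thinning put the share of cardiomyocyte-like cells with Nppa at 2.07%, 4.76% and 1.29% in Myh6-R404Q, Prkag2-p.R299Q and WT, and the share of genes past 1.5-fold at 22.8% for Myh6-R404Q and 20.1% for Prkag2-p.R299Q, against 12.9% and 6.71% with all UMIs. Thinning gives every cell the same weight and leaves fewer UMIs; the cause of each shift was not tested. In the largest cardiomyocyte-like cluster alone, an alternative chosen after seeing the data, the log2 ratio of Nppa was -0.80 for Myh6-R404Q and 1.497 for Prkag2-p.R299Q, that of Nppb in Prkag2-p.R299Q was 0.45 against 0.70, and the Nppa share of Prkag2-p.R299Q was 12.8%. Without the 1% of cells with the most Nppa, also chosen after seeing the data, the Myh6-R404Q log2 ratio was 0.37. TMM scaling moved Corin in Myh6-R404Q to -0.0077, against 0.11. With every gene that had a UMI, 39.1% were past 1.5-fold for Myh6-R404Q and 36.0% for Prkag2-p.R299Q, and with genes of at least 50 CPM 3.63% in Prkag2-p.R299Q. No paired analysis was possible because each genotype had 1 library and the labels give no replicate numbers, and for the same reason no replicate could be left out. Depth limits Npr1 and Npr2 most, whose levels rest on 69 to 122 UMIs in the leading class of each.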
